A study of Zea mays with 9 samples.

Results

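The genes opaque2 (o2), prolamin-box binding factor 1 (pbf1) and the o2 heterodimerizing protein genes ohp1 and ohp2 encode transcription factors that activate zein genes in the maize endosperm. They were found by their gene model identifiers, GRMZM2G015534 (o2), GRMZM2G146283 (pbf1), GRMZM2G016150 (ohp1) and GRMZM2G007063 (ohp2). All 4 were present among the 110028 counted gene models. They were followed in the maize inbred B73, self-pollinated in a greenhouse, and the labels name no treatment or mutation for any group. The groups were endosperm cut free of embryo and pericarp at 8, 10 and 12 days after pollination (DAP), and whole kernels taken at 0 (unpollinated), 2, 3, 4 and 6 DAP. The change from kernel to endosperm therefore coincides with the step from 6 to 8 DAP, and tissue and age cannot be told apart there. Each stage was 1 biological sample, and only the 0 DAP sample had 2 libraries, technical replicates a and b.

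Zeins are the prolamin storage proteins of maize and collect in protein bodies of the endoplasmic reticulum of endosperm cells. O2 is a basic leucine zipper (bZIP) protein that binds ACGT-type sites in zein promoters and in other endosperm genes. Its loss gives the opaque, lysine-rich kernel for which the gene is named. PBF1 is a Dof zinc finger protein that binds the neighbouring prolamin box and contacts O2, while OHP1 and OHP2 are bZIP paralogs of each other that can pair with O2 and also act on zein promoters.

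The libraries held 17716275 to 40145710 counted reads. Levels are given as v, the CPM (library-size-scaled reads) of a gene after the library total is multiplied by the TMM factor of edgeR. This factor was 1.07 to 1.61 in the libraries of 0 to 8 DAP, and 0.528 and 0.156 in those of 10 and 12 DAP. The reads of 28 zein models made up 1.40%, 20.5% and 33.9% of the libraries of 8, 10 and 12 DAP. The level v compares a gene with most other genes rather than with the whole library. Changes of the 4 genes that turn on this choice are given on both scales. Endosperm levels of other genes are given as v only, and their course can differ by library total. Between 8 and 12 DAP the median detected model changed by -1.46 (log2) by library total and by -0.07 by TMM. These log2 values are of levels with 1 added, which dampens the change of genes with few reads. A scaling moves all genes of a library alike, so distances from the median differ between scalings only through this added 1. A v of 10 rested on 57 to 547 reads, and 3 reads correspond to a v of 0.0549 to 0.528. Intervals are exact 95% intervals that cover counting error only. With 1 sample per stage no difference has a biological replicate and no test between stages was possible. A gene was called higher or lower by a rule of size. The 2 values of v + 1 had to differ by a factor of 4 or more, the larger v had to reach 10, and 1 had to lie outside the interval of the ratio. In bulk samples fewer cells of a type and less RNA per cell cannot be told apart.

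Markers of maternal tissue, of endosperm cell types and of the embryo were followed across the change from kernel to endosperm, and they did not all move alike. The summed v of 5 matched maternal and floral MADS-box genes was 124 to 277 in endosperm and 1235 to 1759 in kernels. That of 5 basal transfer layer genes was 664 to 3151 in endosperm, against 7.95 to 31.6 in kernels up to 4 DAP and 616 at 6 DAP. For 3 embryo-surrounding region genes it was 94.1 to 133 in endosperm, at most 4.25 in kernels up to 4 DAP and 148 at 6 DAP. For 5 aleurone genes it was 387 to 583 in endosperm and 170 to 242 in kernels. Of these, cr4 was lower in endosperm (11.8 to 17.9) than in kernels (25.9 to 51.0), and dek1 overlapped. Among 3 matched embryo and oil body markers lec1 was at 0 in all endosperm libraries and vp1 at 1.70 or less, while the oleosin gene ole1 was at 62.7 to 239. The part of tissue composition in the results on o2, pbf1, ohp1 and ohp2 was not tested.

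The genes o2 and pbf1 were near 0 in all kernel libraries and high in all endosperm libraries, whereas ohp1 and ohp2 were present at every stage. Among the 4 genes, o2 and pbf1 were called higher in endosperm than in kernels in every pair of stages. That rule called 0.45% of the 44687 detected models higher and 0.483% lower. Neither ohp1 nor ohp2 was called in either direction. By library total the o2 call held and the pbf1 call did not, since pbf1 at 12 DAP was then at 9.85 CPM, under the minimum of 10. All 4 genes reached a v of 1 in at least 1 library, so none was lost to a filter on low values.

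**Figure D1:**
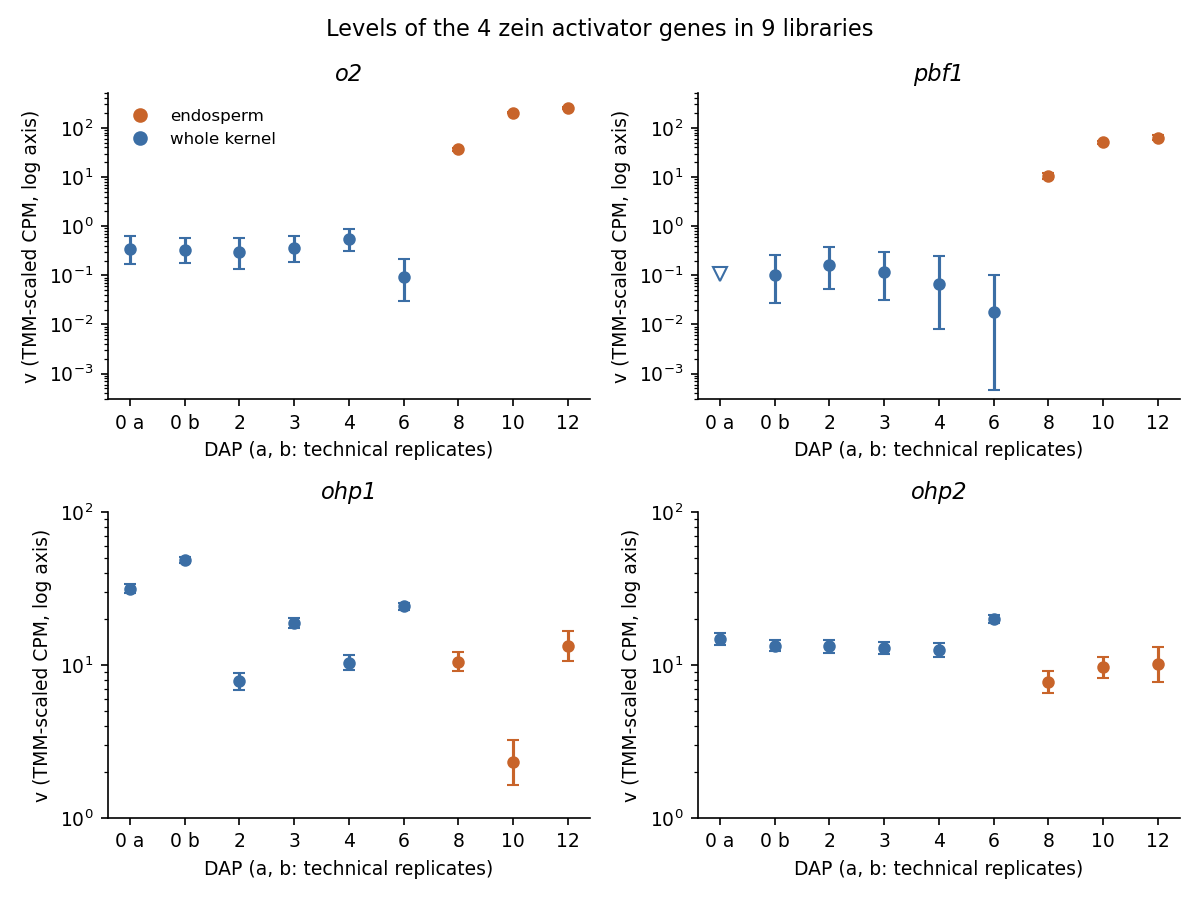
Level v of each gene in the 9 libraries on log axes, with the same axis for o2 and pbf1 and another for ohp1 and ohp2. Points are single libraries, bars are exact 95% counting intervals, and the open triangle is the level of 3 reads where pbf1 had 0 reads. The genes o2 and pbf1 lie under 1 in all kernel libraries and above 10 in all endosperm libraries, while ohp1 and ohp2 stay between 2.33 and 48.5.

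The activator o2 was highest at 12 DAP on the v scale and lowest at 6 DAP. It had 10 and 13 reads in the 0 DAP libraries a and b, then 9, 12, 16 and 5 reads at 2, 3, 4 and 6 DAP. In endosperm it had 702, 3226 and 1428 reads at 8, 10 and 12 DAP. The corresponding v was 0.350 and 0.329 in the 0 DAP libraries, then 0.296, 0.353, 0.540 and 0.0915 in kernels, and 36.7, 203 and 251 in endosperm. The lowest endosperm value and the highest kernel value, at 8 and 4 DAP, differed 68.0-fold (95% interval 41.6 to 120). By its smallest ratio o2 was at rank 22 of the 201 models called higher, with ratios taken on v + 1.

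Among all detected models o2 ranked 41809th by v at 6 DAP, 4854th at 8 DAP, 798th at 10 DAP and 507th at 12 DAP. From highest to lowest, its stages ran 12, 10, 8, 4, 3, 0, 2 and 6 DAP. The 3 endosperm stages were separated from each other and from the kernels by intervals that exclude 1. Among the 5 kernel stages no pair next to each other in this order was, although 6 against 4 DAP had a ratio of 0.169 (95% interval 0.0486 to 0.484, 5 and 16 reads).

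The profile of pbf1 was likewise low in kernels and high in endosperm, with fewer reads than o2. It had 0 and 4 reads in the 0 DAP libraries a and b, and 5, 4, 2 and 1 reads at 2, 3, 4 and 6 DAP. In endosperm 200, 813 and 360 reads were counted at 8, 10 and 12 DAP, or a v of 10.5, 51.1 and 63.3. The highest kernel level was a v of 0.165 at 2 DAP, so that 8 over 2 DAP was 63.5-fold (95% interval 26.8 to 198). By its smallest ratio pbf1 was at rank 70 of the 201 models. Its 8 DAP level lay only just above the minimum of 10. Again the endosperm stages were ordered 12, 10 and 8 DAP with intervals that exclude 1, and no kernel stages next to each other in order of level were separated.

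The model of pbf1 shares 2 RefSeq records with a second model, GRMZM2G146267. That model had a v of 26.1 to 44.0 in kernels and 41.6, 50.6 and 71.6 in endosperm. Its profile thus differed from that of pbf1, and pbf1 had at most 5 reads in kernel libraries where the second model had 961 to 1720. No model had counts within 2% of those of any of the 4 genes in the libraries where the gene had 20 reads or more.

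The rise came in steps. At 8 against 6 DAP both genes were called higher, in a step where 1.67% of detected models were (3.21% lower), and ratios of 401-fold and 571-fold rested on 5 and 1 reads at 6 DAP. Their intervals, 171 to 1239 for o2 and 101 to 22680 for pbf1, are accordingly wide. The v of o2 was 203 at 10 DAP and 36.7 at 8 DAP, a 5.53-fold rise (95% interval 5.09 to 6.01). For pbf1 it was 51.1 at 10 DAP and 10.5 at 8 DAP, a 4.89-fold rise (95% interval 4.18 to 5.74). The rule called 0.897% of models higher and 0.68% lower in this step. By library total the log2 ratios were 1.43 for o2 and 1.20 for pbf1, and neither was called. At 12 against 10 DAP neither gene was called, and the ratio was 1.24 for both (95% intervals 1.16 to 1.32 for o2 and 1.09 to 1.40 for pbf1).

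Between the first and last endosperm stages, without a change of tissue, o2 and pbf1 were again called higher on the v scale. At 12 against 8 DAP o2 was 6.85-fold higher (95% interval 6.25 to 7.50) and pbf1 6.06-fold higher (95% interval 5.08 to 7.24), where 1.55% of detected models were called higher and 1.8% lower. The genes ohp1 and ohp2 had ratios of 1.27 (95% interval 0.964 to 1.66) and 1.32 (95% interval 0.956 to 1.80). By library total neither activator was called at 12 against 8 DAP. On that scale o2 had 39.2, 107 and 39.1 CPM at 8, 10 and 12 DAP, and pbf1 had 11.2, 27.02 and 9.85. Both were then highest at 10 DAP. The median detected model changed by -1.46 (log2) between 8 and 12 DAP by library total and by -0.07 by TMM. Set against that median, o2 lay 1.45 higher by library total and 2.81 higher by TMM, and pbf1 1.29 and 2.56 higher. From 10 to 12 DAP o2 lay at 0.38 by TMM and at -0.65 by library total against the median. A scaling moves all genes of a library alike, so these distances differ between scalings only through the 1 added before log2. The turned sign is therefore no change of o2 relative to other genes.

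**Figure D2:**
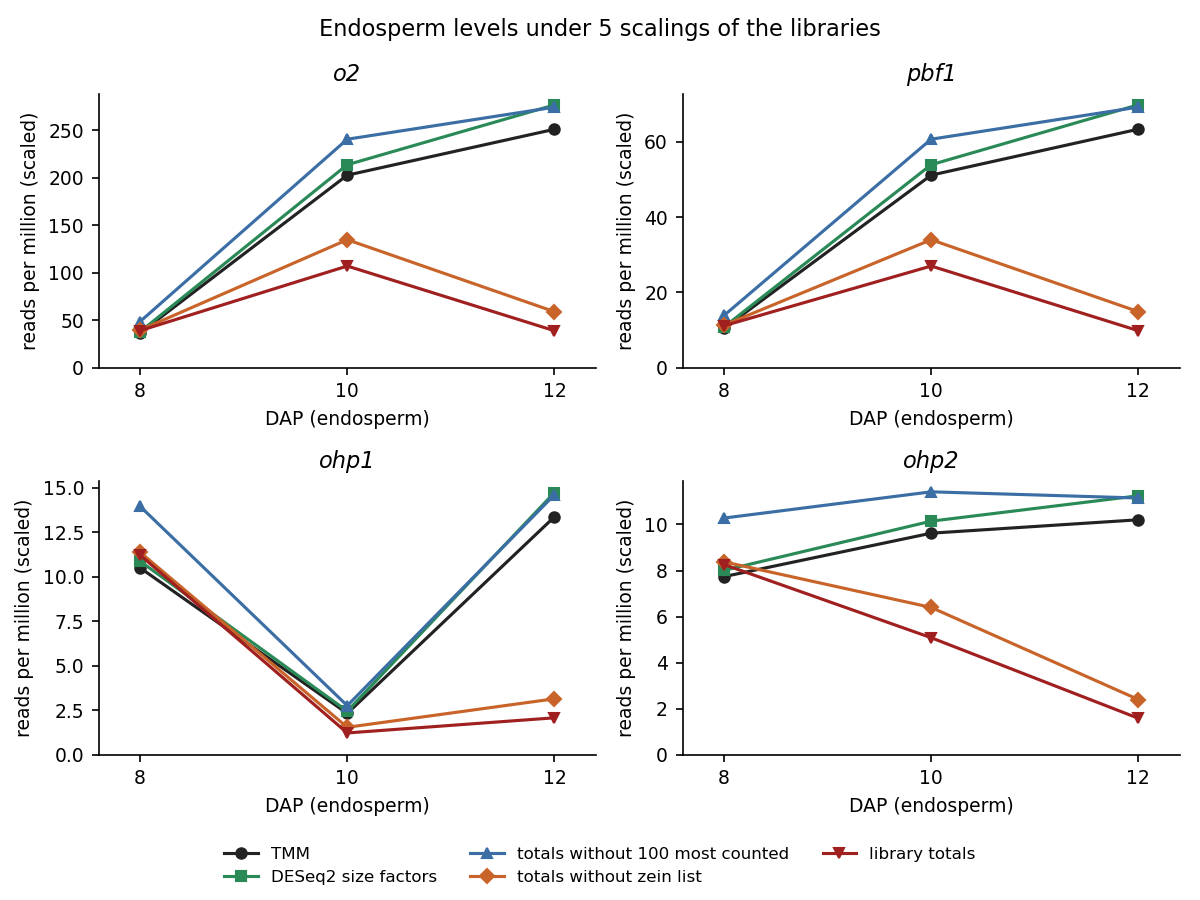
CPM of each gene at 8, 10 and 12 DAP under 5 scalings of the same counts, on linear axes that start at 0. Under TMM, DESeq2 size factors and totals without the 100 most counted models o2 and pbf1 are highest at 12 DAP, and under totals with or without the zein list they are highest at 10 DAP.

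Ratios of reads within a library do not depend on the scaling. The number of o2 reads per pbf1 read was 3.51 at 8 DAP (95% interval 3.00 to 4.13), 3.97 at 10 DAP (3.67 to 4.29) and 3.97 at 12 DAP (3.53 to 4.47). These intervals overlap, but the change of this ratio between stages was not given an interval of its own. A change in the balance of the 2 activators was thus neither shown nor excluded, while each gene changed several-fold on the v scale. In kernels the ratio lay between 1.80 (0.542 to 6.84) at 2 DAP and 8.00 (1.88 to 71.7) at 4 DAP, with too few reads to separate the stages. At 0 DAP in library a no pbf1 read was counted, which leaves only a lower bound of 2.24.

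The share of o2 among the 3 bZIP genes was far higher in endosperm than in kernels. Of the reads of o2, ohp1 and ohp2 together, o2 made up 66.8% at 8 DAP (95% interval 63.9 to 69.6), 94.4% at 10 DAP (93.6 to 95.2) and 91.4% at 12 DAP (89.9 to 92.8). In kernels its share was between 0.206% (0.0670 to 0.481) at 6 DAP and 2.31% (1.33 to 3.72) at 4 DAP. Endosperm and kernel shares did not overlap. A share of reads depends on the length of each transcript and is compared here between stages only.

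**Figure D3:**
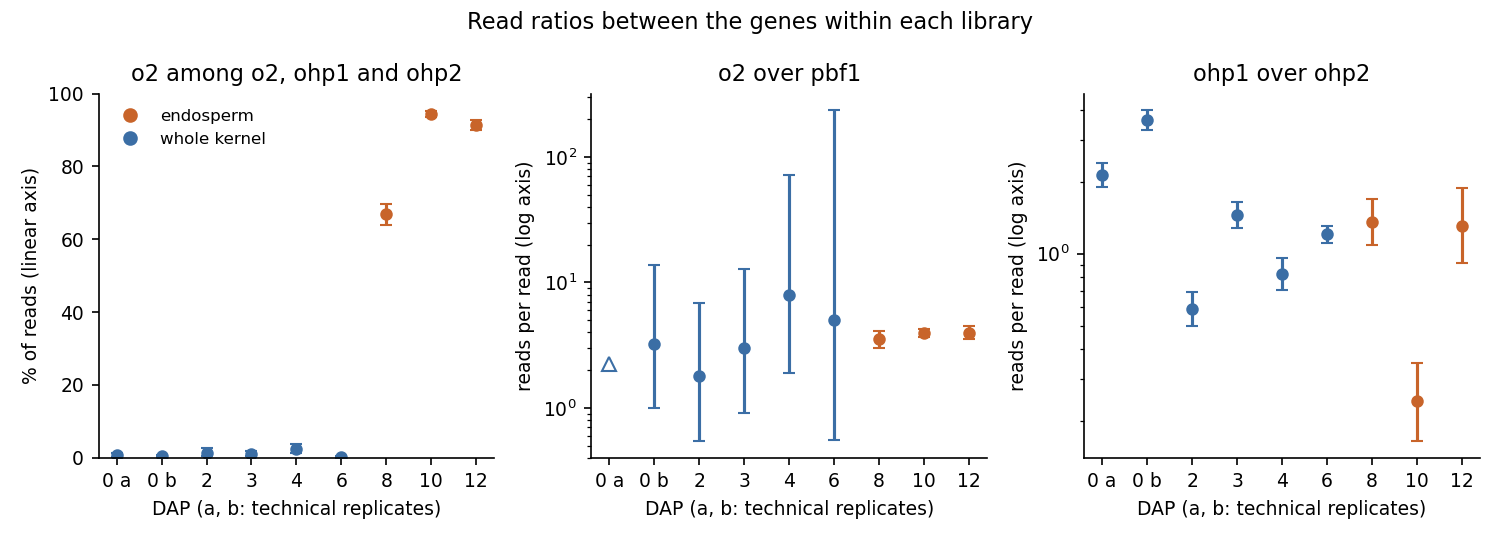
Read ratios within each of the 9 libraries with exact 95% intervals: o2 as a percentage of the reads of o2, ohp1 and ohp2 (linear axis), o2 reads per pbf1 read and ohp1 reads per ohp2 read (log axes). The open triangle is the lower bound where pbf1 had no read. The o2 share is 66.8% to 94.4% in endosperm and at most 2.31% in kernels, the o2 to pbf1 ratio is between 3.51 and 3.97 in endosperm, and the ohp1 to ohp2 ratio scatters between 0.242 and 3.62.

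On the v scale the paralog ohp2 had the smallest range of the 4 genes. Its v was 14.8 and 13.4 in the 0 DAP libraries a and b, 13.3, 12.9, 12.5 and 20.1 at 2, 3, 4 and 6 DAP, and 7.74, 9.62 and 10.2 in endosperm. The endosperm values lay below all kernel values on this scale, but the gene did not meet the rule in any pair of stages tested. The nearest values, at 4 and 12 DAP, differed 1.23-fold with an interval that includes 1 (95% interval 0.928 to 1.65). How many of all detected models also lay without overlap was not counted. The mean log2(v + 1) was 3.34 in endosperm and 3.94 in kernels, a difference of -0.60 where the median of all detected models was -0.11. By library total the difference was -2.08 and the median -1.07, and ohp2 had 8.26, 5.08 and 1.59 CPM at 8, 10 and 12 DAP and 18.8 to 27.3 CPM in kernels. By size the order was 6, 0, 2, 3, 4, 12, 10 and 8 DAP. Only 6 DAP was separated from its neighbour, at 1.43-fold over 0 DAP (95% interval 1.31 to 1.57). In the technical pair the ratio of library b over library a was 0.905 for ohp2 (95% interval 0.795 to 1.03). The v of ohp2 was 7.74 at 8 DAP and 20.1 at 6 DAP, a ratio of 0.386 (95% interval 0.323 to 0.458) that did not reach the required factor of 4.

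The paralog ohp1 varied far more from library to library, with no steady course. Its v was 31.5 and 48.5 in the 0 DAP libraries a and b, and 7.83, 18.8, 10.3 and 24.2 at 2, 3, 4 and 6 DAP. In endosperm it was 10.5, 2.33 and 13.4 at 8, 10 and 12 DAP, the 10 DAP value resting on 37 reads. Endosperm and kernel values overlapped, and the difference in mean log2(v + 1) was -1.17, with means of 3.03 in endosperm and 4.202 in kernels. By library total it was -2.61, where the median of all detected models was -1.07. Among the 7 steps between neighbouring stages ohp1 was called in 2, in opposite directions. At 2 against 0 DAP ohp1 was called lower, with 7.83 at 2 DAP and 41.4 at 0 DAP, a ratio of 0.189 (95% interval 0.165 to 0.216), in a step where 0.577% of models were called lower and 0.387% higher. At 12 against 10 DAP it was called higher, with 13.4 at 12 DAP and 2.33 at 10 DAP, a ratio of 5.75 (95% interval 3.83 to 8.76), where 0.667% of models were (0.51% lower). None of the 4 genes was called at 3 against 2 DAP (0.347% of models higher, 0.322% lower), 4 against 3 DAP (0.412% higher, 0.233% lower) or 6 against 4 DAP (0.792% higher, 0.499% lower).

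The v of ohp1 was 2.33 at 10 DAP and 10.5 at 8 DAP, a ratio of 0.221 (95% interval 0.152 to 0.316) that fell short of the required factor once 1 was added to both. By library total it was called lower there, with a log2 ratio of -2.45.

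Both ohp1 calls depended on single libraries or settings. With 0 DAP library a alone the log2 ratio of 2 over 0 DAP was -1.88 and the gene was no longer called. For 12 over 10 DAP the call was lost by library total, with 2.08 CPM at 12 DAP and 1.23 CPM at 10 DAP. It was also lost when counts were thinned to the smallest library total, at a log2 ratio of 1.82. The technical libraries themselves differed for ohp1, with b over a at 1.54-fold (95% interval 1.42 to 1.67), or 0.61 on the log2 scale. Across 12469 models with a mean v of 10 to 100 at 0 DAP the SD of that log2 ratio was 0.37, and 93.6% of them differed by less than ohp1. The rule called 0.172% of all detected models in that pair, and none of the 4 genes. By size the stages ran 0, 6, 3, 12, 8, 4, 2 and 10 DAP. Neither 12 and 8 DAP nor 8 and 4 DAP were separated, with ratios of 1.27 (95% interval 0.964 to 1.66) and 1.02 (0.847 to 1.22).

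Within libraries the reads of ohp1 per read of ohp2 ranged widely. At 0 DAP the ratio was 2.13 (95% interval 1.90 to 2.40) in library a and 3.62 (3.29 to 3.99) in library b, although these are technical replicates of 1 sample. At 2, 3, 4 and 6 DAP it was 0.589, 1.45, 0.825 and 1.21. It was 1.36 (1.09 to 1.69), 0.242 (0.164 to 0.348) and 1.31 (0.919 to 1.88) at 8, 10 and 12 DAP. In this ratio the 10 DAP library stands apart from both other endosperm libraries. How reads that fit both paralogs were counted is not given in the sources used here, so the split between ohp1 and ohp2 is uncertain.

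The zein genes were set beside their activators as a fraction of each gene's own 12 DAP level, which for a pair of genes in the same libraries is compared without regard to scaling. The percentages themselves depend on the scaling and are given for v. By library total o2 had 39.2, 107 and 39.1 CPM at 8, 10 and 12 DAP, and pbf1 had 11.2, 27.02 and 9.85. At 8 DAP o2 and pbf1 were at 14.6% and 16.5% of their 12 DAP v, and all 28 zein models were at a median of 0.442% (0.120% to 13.5%). At 10 DAP the activators were at 80.8% and 80.7% and the zeins at a median of 21.5% (12.9% to 56.9%). The point values of all 28 zein models were below that of o2 at both stages. The closest at 8 DAP were the gamma-zein gene zp27 at 13.5% and the beta-zein gene zp15 at 10.9%, followed by zp16 at 2.57%. At 8 DAP o2 was not separated from zp27, with 95% intervals of 13.3% to 16.0% for o2 and 13.2% to 13.7% for zp27. The alpha-zein models were at 1.19% or less. Several zein models are near-identical copies whose reads may have been shared or counted more than once, so the 28 are not independent. Of 28 detected zein models 24 were called higher in endosperm (17 by library total), against 0.45% of all detected models and 3.09% of those with a usable name. These 24 are among the 60 called models behind the 3.09%, so that share, also used below, is raised by the zeins. The most abundant at 12 DAP were the alpha-zein models z1A1_3, z1A1_5 and z1A1_7, whose v was 1613, 1642 and 1636 at 8 DAP.

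**Figure D4:**
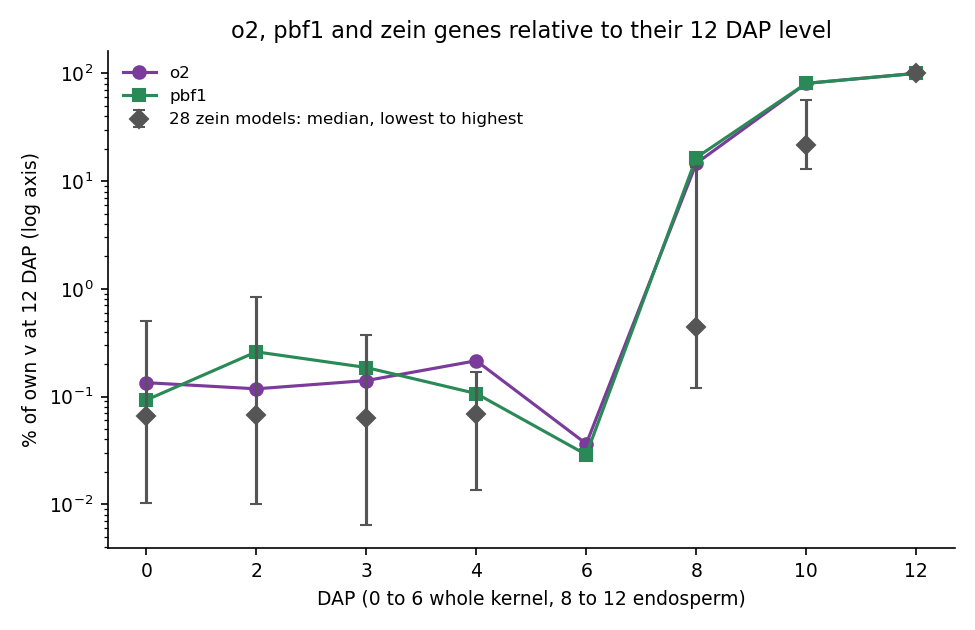
Level v at each stage as a percentage of the same gene's v at 12 DAP, on a log axis, for o2, pbf1 and 28 zein models (diamond at the median, bar from the lowest to the highest model). The zein median at 6 DAP is 0% and is not drawn. At 8 and 10 DAP the points of both activators lie above every zein model, where o2 is at 14.6% and the highest zein model at 13.5% at 8 DAP.

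In the kernel libraries of 0 to 4 DAP 0.210% to 0.243% of reads were zein reads, against 0.000346% at 6 DAP, and o2 and pbf1 were also lowest at 6 DAP. The same 28 zeins had a median of 0.0653%, 0.0668%, 0.0626% and 0.0695% of their 12 DAP level at 0, 2, 3 and 4 DAP and 0% at 6 DAP. For o2 the corresponding values were 0.134%, 0.118%, 0.141%, 0.215% and 0.0364%, and for pbf1 0.0928%, 0.260%, 0.186%, 0.107% and 0.0289%. The zein models spread widely, and the highest was at 0.501%, 0.832%, 0.372%, 0.170% and 0.0231% at these stages. Both activators lay under that highest model, except o2 at 4 DAP and both at 6 DAP. At the zein median o2 would have had 11.2, 5.10, 5.34 and 5.17 reads at 0 to 4 DAP, against 23, 9, 12 and 16 counted. For pbf1 the same calculation gives 2.82, 1.29, 1.35 and 1.30 reads, against 4, 5, 4 and 2 counted. Whether these kernel reads came from kernel transcripts was not tested.

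Other transcription factors of the 2 families were examined by symbol. Of 29 detected bZIP genes 0 were called in endosperm against kernels, in either direction, under the 5 scalings, where 0.45% of all detected models and 3.09% of those with a usable name were called higher under TMM. At such shares 0 of 29 does not set the family apart. Their median log2 difference was -0.03 (0.06 with DESeq2 size factors, -1.47 by library total), against -0.11 for all detected models (-0.05 and -1.07). The change of order by library total arises only through the 1 added before log2, since a scaling moves all genes alike. The largest positive differences were those of bZIP17 (also bZip112) and bZIP46, picked after their values were seen. The v of bZIP17 was 20.5, 66.0 and 118 at 8, 10 and 12 DAP and at most 18.3 in kernels, and that of bZIP46 was 12.5, 8.49 and 2.46 and at most 3.59. At 12 against 8 DAP bZIP17 was called higher, except by library total with or without the zein list. Of 5 detected Dof genes DOF36 was called higher, with 25.2, 35.5 and 34.8 in endosperm and at most 5.53 in kernels, although not by library total or without the 100 most counted models. The other 4, dof2, DOF22, dof3 and MNB1B, were not called, and their log2 differences were between -2.02 and -0.996.

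Among 14 detected models of seed regulators and cofactors 6 were called higher and none lower, against 0.45% and 0.483% of all detected models. By library total with or without the zein list nac4 alone was called. Without the 100 most counted models 4 were, and DOF36 and fie1 were not. Genes entered the lists only if their model had a usable name, and of the 1942 detected models with one 3.09% were called higher and 2.06% lower. The median log2 difference of the 14 regulators and cofactors was 1.56 (0.54 by library total). That of all detected models was -0.11 (-1.07 by library total), and that of detected models with a usable name was -0.27. The NAC gene nac4 had a v of 126, 449 and 744 at 8, 10 and 12 DAP and at most 1.44 in kernels. Opaque11, a basic helix-loop-helix regulator of endosperm, had 30.9, 38.2 and 38.2, and at most 5.36. The aleurone regulators Nkd1 and Nkd2 had 44.2, 63.6 and 50.8 and 29.6, 41.7 and 34.5, against kernel levels of at most 4.74 and 1.35. The imprinted Polycomb gene fie1 had 116, 90.5 and 61.6, and at most 12.3 in kernels. The histone acetyltransferase gene gcn5, which acts as a coactivator, had 60.3, 71.8 and 60.9 in endosperm and 37.7 to 54.5 in kernels. The model named MRP1, a symbol that other maize genes may carry, had 1.78, 2.08 and 1.06 in endosperm and 0.954 to 6.41 in kernels. The embryo and seed maturation regulators lec1 and vp1 had at most 0 and 1.70 in endosperm and at most 0.0732 and 0.512 in kernels. The models named EREB156, Myb14, MADS47 and dof3 had at most 1.67 in endosperm and at most 2.38 in kernels.

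Genes known as targets of O2 or PBF1 outside the zeins, and other grain-filling genes listed with them, differed in course within endosperm. Of 8 listed genes 4 were called higher than in kernels and none lower (3 by library total), against 3.09% and 2.06% of detected models with a usable name. The pyruvate phosphate dikinase genes CYPPDKZM2 and cyppdkZm1 had 2258, 7231 and 6008 and 282, 846 and 656 at 8, 10 and 12 DAP, and kernel levels of at most 36.8 and 14.5. The storage globulin gene leg1 had 1750, 3775 and 6307 and at most 13.3, and fl3, which encodes a PLATZ zinc finger protein, had 1327, 1804 and 1249 and at most 111. The ribosome-inactivating protein gene b-32, a classical O2 target, was late: it had 3.24, 98.7 and 211 in endosperm and at most 2.01 in kernels, and was called at 12 against 8 DAP under all 5 scalings. The lysine catabolism gene lkrsdh1 had 34.3, 189 and 585, was called at 12 against 8 DAP except by library total with or without the zein list, and had 17.9 to 44.5 in kernels. The starch synthase gene du1 had 459, 602 and 777 and at most 160 in kernels, without a call. The second ribosome-inactivating protein gene listed, rip2, was at most 0.209 in endosperm and 1.45 to 6.24 in kernels.

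Genes of the folding machinery that receives zeins in the endoplasmic reticulum were listed too. Of 13 detected members 0 were called in either direction, where 3.09% of detected models with a usable name were called higher and 2.06% lower, a share at which 0 of 13 does not set the list apart. Their median log2 difference was 0.47 under TMM, where the median of all detected models was -0.11. By library total the 2 medians were -1.25 and -1.07. This change of order arises only through the 1 added before log2, since a scaling moves all genes alike. The chaperone genes bip1 and bip2 had 189, 556 and 319 and 124, 394 and 276 at 8, 10 and 12 DAP, with at most 110 and 82.7 in kernels. The protein disulfide isomerase gene PDIL1-1 had 1063, 2254 and 2349 and at most 566. Of 6 loci named for opaque or floury kernels 4 were called higher (2 by library total, FL2 and fl4), against 3.09% of detected models with a usable name. Of these, FL2 and fl4 are alpha-zein genes also counted above, and fl3 and Opaque11 are also named above. The remaining O10 had 11.8, 53.9 and 118 in endosperm and 11.2 to 40.1 in kernels and was called at 12 against 8 DAP by TMM, and o7 had 11.8, 16.9 and 11.6 and 0.485 to 11.6.

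The named genes with profiles most like each activator were found by Pearson r of log2(v + 1) over the 8 stages among 1366 named genes with a v of at least 10 at some stage. These values are descriptive: the 8 points are shared by all genes, share their libraries and scaling, and for o2 and pbf1 fall into a kernel and an endosperm cluster. For o2 the closest were bt1 (r = 0.998), nac4 (0.996), TAR3 (0.996), PYL8 (0.995) and ZCN11 (0.994). The plastid ADP-glucose transporter gene bt1 followed o2 through 121, 663 and 807 at 8, 10 and 12 DAP. The auxin synthesis gene TAR3 had 13.0, 76.5 and 123. For pbf1 the closest were TAR3 (0.999), scl1 (0.996), the sucrose synthase gene SH-1 (0.995), nac4 (0.993) and bt1 (0.993). An r of at least 0.9 was shared by 129 genes with o2 and 133 with pbf1. Ranked by Spearman rho instead, 1 of these 5 genes stayed among the closest 5 for o2 and 0 for pbf1.

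For ohp2 the closest profiles were Di19 (0.966), see2a (0.959), LIM3 (0.946), pk3 (0.928) and Hox2b (0.928), and 18 genes had an r of at least 0.9. Like ohp2, Di19 was highest at 6 DAP, at 43.5, and had 6.69, 9.37 and 10.9 in endosperm. For ohp1 no named gene reached 0.9. The highest was bZip37 (0.871), another bZIP gene, with 25.5 at 0 DAP and 8.99, 8.74 and 15.3 in endosperm, followed by PRR59 (0.848), igl1 (0.840), CK1 (0.825) and PP2C23 (0.824). By Spearman rho 2 of the 5 stayed among the closest for ohp1 and 2 for ohp2.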

How the data were processed

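Poly(A) RNA of 9 libraries was sequenced on the SOLiD 4 system, per the labels' protocols. The values are raw read counts per gene model as deposited by the authors, 1 column per library. The submitters' processing notes name bedtools, with no version. Which aligner, genome build, annotation, strand setting and handling of reads with several matches applied is not given in the sources used here.

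All 4 genes were taken by identifier. Other names came from RefSeq genes of Zm-B73-REFERENCE-NAM-5.0, matched by alias and used without coordinates, which gave 2281 models a name carried by no other model. TMM factors came from edgeR 4.0.16 in R 4.3.3, and 1 was added to v for the call rule and log2 values, whereas printed ratios and folds are of v itself. The rule of size was applied to the 44687 models with v of at least 1 in some library, after its code had been run on simulated counts. These were drawn from a single mean profile with a spread fixed in advance, so they give no measure of biological variation here. Technical replicates were summed.

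The genes and lists were chosen with earlier results of these data known, and list symbols shared with unrelated gene families were removed. Named are the 4 genes, up to 6 called genes per list, the 3 most abundant zeins, the listed regulators and 5 like profiles per gene; further list genes were picked with their values in view. Other settings tried were size factors of DESeq2 1.42.0, scaling by library total (with all models, without the zein list or without the 100 most counted models), a required factor of 2, an added 0.1 instead of 1, no minimum level, thinned counts, single 0 DAP libraries, leaving out each stage and, for like profiles, Spearman rho. Scripts ran in Python 3.11.15 with pandas 2.3.3, numpy 2.4.6, matplotlib 3.10.9 and scipy 1.17.1.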

Additional observations from a re-analysis of the deposited data

How the results depend on the processing

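The scaling between libraries changed calls and directions, and the cause was not tested. Of the 4 genes, 2 were called higher in endosperm than in kernels under TMM, and 1 (o2) by library total. At 12 against 8 DAP 2 were called higher under TMM, and 0 by library total with or without the zein list. Over the 7 steps between neighbouring stages 5 calls were higher and 1 lower under TMM, but 2 higher and 2 lower by library total with or without the zein list. With a required factor of 2 there were 7 higher and 4 lower calls, with 0.1 added in place of 1 there were 5 and 2, and thinned counts gave 4 and 1. With single 0 DAP libraries the lower calls were 0 to 1. By library total the log2 ratio of 12 over 10 DAP turned to -1.43 for o2 and -1.37 for pbf1 (-1.18 and -1.14 without the zein list). That of 12 over 8 DAP turned to -0.00387 for o2, -0.16 for pbf1, -1.99 for ohp1 and -1.84 for ohp2 (-1.58 and -1.46 for ohp1 and ohp2 without the zein list). That of 10 over 8 DAP turned to -0.61 for ohp2 (-0.34 without the zein list). From 10 to 12 DAP ohp2 rose from 9.62 to 10.2 by TMM but fell from 5.08 to 1.59 by library total (6.40 to 2.40 without the zein list). Without the 100 most counted models it also fell, from 11.4 to 11.1, and no other of these directions turned. DESeq2 size factors turned none of them. Neither of these 2 scalings changed any of these counts. Not requiring a stage, using the 6 DAP kernels alone (chosen after seeing the data) or dropping the minimum level can only add calls, and added none among the 4 genes.

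Over all models the endosperm calls were 201 higher and 216 lower under TMM, 72 and 601 by library total, 85 and 558 without the zein list, 188 and 421 without the 100 most counted models, and 575 and 677 with a factor of 2. Leaving out a stage gave 507 and 327 for 8 DAP, 346 higher for 6 DAP and 325 lower for 0 DAP. At 12 against 8 DAP they were 691 and 806 under TMM, 161 and 11394 by library total, 182 and 8630 without the zein list, 1947 and 2725 with a factor of 2, and 1088 and 1364 without a minimum level. Without the 100 most counted models 1278 were lower. Of the 5 most like profiles 1 to 5 were kept for o2, 0 to 5 for pbf1, 2 to 5 for ohp1 and 1 to 3 for ohp2, with the lowest for o2, pbf1 and ohp1 under Spearman rho (for ohp1 also without the 100 most counted models). No paired analysis was possible because each stage has 1 biological sample, so that any 2 stages share at most 1 replicate number. At 1 sample per stage, biological variation is unmeasured, and o2 and pbf1 in kernels rest on at most 16 and 5 reads per library.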
